A study of Homo sapiens with 5 samples.

Results

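Connexins are the subunits of gap junctions, the channels that join the cytoplasm of neighbouring cells. Connexin subunits of a cell assemble into a hemichannel, which docks with a hemichannel of the next cell, and the subunits present set the conductance and selectivity of the channel. In the heart these channels carry the action potential from cell to cell. GJA1 (connexin 43) is the main connexin of working ventricular muscle, GJA5 (connexin 40) that of atrial muscle and of the fast conduction fibres, and GJC1 (connexin 45) is known from nodal cells. The beta connexins are best known from epithelia such as liver, gut, inner ear and skin.

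The 9 connexin genes described here are GJA1, GJA3, GJA4, GJA5, GJB1, GJB2, GJB6, GJC1 and GJD3, taken by symbol from 27139 genes listed, among them 20 connexin genes in all. The cells were of the wild-type H1 line, established from human embryonic stem cells, and poly(A) RNA was sequenced at day 30 of differentiation towards heart muscle. In the GiWi group (2 libraries) the cells had received an inhibitor of GSK3, a kinase that restrains Wnt signalling, and an inhibitor of the Wnt pathway, with a labelled treatment time of 48 h. In the YAPi group (3 libraries) they had received Activin, of the TGF-beta family, and an inhibitor of YAP, a coactivator held back by Hippo signalling, for 24 h. Agents and treatment time therefore cannot be told apart, and the labels leave unsaid whether replicates were grown as separate cultures. The p-values therefore reflect the spread among these 5 libraries alone, and that spread may be technical.

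The libraries held 43661188 to 48904302 exon counts, so that 1 count was worth 0.0187 to 0.0247 CPM (the count relative to library total, scaled by TMM factors). YAPi replicate 3 stood apart from replicates 1 and 2: across genes, log2 CPM correlated at r = 0.984 and 0.985 with them, against 0.999 between those. The 14 cardiomyocyte markers, none at 0, summed to 6951 to 7127 CPM in GiWi, to 5882 and 5960 CPM in YAPi replicates 1 and 2 and to 2463 CPM in replicate 3, and all 14 were lower in replicate 3 than in both others. Of these markers 1 was higher in YAPi, 3 lower and 10 did not pass, against 4 higher and 8 lower without replicate 3. Thus 28.6% passed, beside 57.1% of all genes tested, and 85.7% without replicate 3, beside 74.9% of all genes. Counts over the lists below are to be read beside these shares of all genes. Fold changes of the connexins tested, their ratios and the counts over gene lists are therefore also given without that library. In RNA from whole cultures, fewer cells of a type and less RNA per cell cannot be told apart.

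The mix of connexin transcripts differed between the protocols. GJA1, GJB1 and GJB2 rose with the YAP inhibitor and Activin, and GJA5 and GJC1 fell. GJA3, GJA4 and GJD3 did not pass the test, and GJB6 was too low for it in all libraries but YAPi replicate 3. Of the 8 genes tested, 3 were higher, 2 lower and 3 did not pass by edgeR's quasi-likelihood test at an adjusted p under 0.05. Over all 17634 genes tested, 57.1% passed, 30.2% higher and 26.9% lower, so the share of connexins called was near that of all genes. Of the 8, 4 passed with a change of at least 2-fold (GJA4 had one that did not pass), where 23.3% of all genes tested passed with that size (15.2% higher, 8.14% lower), and the groups did not overlap in 6 of the 8, where 75.8% of all genes did not (38.7% higher, 37.1% lower). The median log2 fold change of the 8 was -0.04, beside 0.01 over all genes tested. Without YAPi replicate 3, 4 of the 8 were higher and 2 lower, where 74.9% of 17519 genes passed (38.4% higher, 36.5% lower).

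Levels can be compared between genes on the FPKM scale, which divides by transcript length. In GiWi the order was GJA1 at 65.3 ± 3.74 FPKM (SD, n = 2), GJA5 at 27.9 ± 1.04, GJC1 at 3.31 ± 0.236 and GJA3 at 2.85 ± 0.0948 FPKM. GJB1 (0.448 ± 0.00354 FPKM), GJB2 (0.434 ± 0.00495 FPKM), GJA4 (0.220 ± 0.0509 FPKM), GJD3 (0.0905 ± 0.0290 FPKM) and GJB6 (0.0245 ± 0.0233 FPKM) followed, with no overlap between neighbours in this order. In YAPi, GJA1 came first at 107 ± 9.45 FPKM (SD, n = 3), and GJB1 stood next at 7.67 ± 2.20 FPKM. GJB2 (3.95 ± 2.18 FPKM) and GJA5 (3.94 ± 0.859 FPKM) followed, and GJA3 (2.62 ± 0.931 FPKM) lay below them; in this run from GJB1 to GJA3 each gene overlapped the next. GJC1 (1.37 ± 0.115 FPKM) lay below all 3 GJA3 values, and its values overlapped those of GJB6 (0.915 ± 1.51 FPKM), while GJA4 and GJD3 were at 0.0963 ± 0.0315 and 0.0760 ± 0.0144 FPKM.

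**Figure D1:**
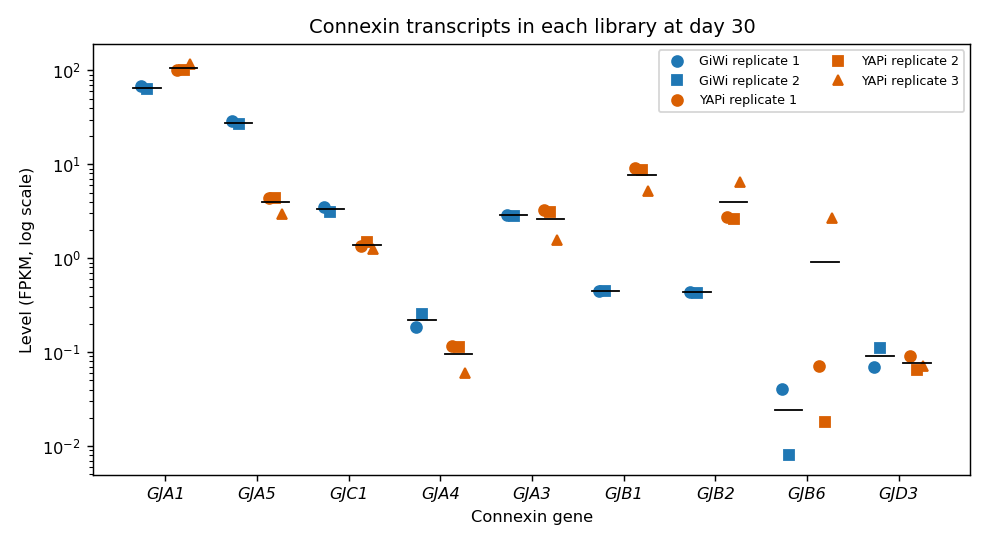
Level of each connexin gene (FPKM, log scale) in every library, blue for GiWi and orange for YAPi, with symbols for the replicates and a black line at each group mean. GJA5 and GJC1 lie lower and GJB1 and GJB2 higher in all YAPi libraries, and YAPi replicate 3 (triangles) stands alone for GJB6.

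Start-site sequences are shown for 4 genes whose transcripts behaved differently, GJA1 (higher), GJA5 (lower), and the chromosome 13 neighbours GJA3 and GJB2. They are RefSeq windows of GRCh38.p14 from 250 bases before to 50 after the annotated start, on the gene's strand, and capitals mark matches to the motifs searched. A match was found in GJA3 alone, so the other 3 windows are all in lower case.
GJA1, chr6:121435396-121435695, plus strand: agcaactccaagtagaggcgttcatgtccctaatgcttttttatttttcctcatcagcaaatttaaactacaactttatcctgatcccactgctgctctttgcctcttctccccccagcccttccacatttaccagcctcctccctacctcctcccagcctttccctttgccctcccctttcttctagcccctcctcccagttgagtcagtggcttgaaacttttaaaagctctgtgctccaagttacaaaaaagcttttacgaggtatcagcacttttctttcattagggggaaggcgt
GJA5, chr1:147773302-147773601, minus strand: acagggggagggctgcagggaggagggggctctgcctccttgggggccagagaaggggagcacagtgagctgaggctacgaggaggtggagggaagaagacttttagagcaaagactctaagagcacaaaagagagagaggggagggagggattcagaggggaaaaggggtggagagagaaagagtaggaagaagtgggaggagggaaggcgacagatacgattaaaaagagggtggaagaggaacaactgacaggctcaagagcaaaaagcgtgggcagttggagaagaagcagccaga
GJA3, chr13:20161003-20161302, minus strand: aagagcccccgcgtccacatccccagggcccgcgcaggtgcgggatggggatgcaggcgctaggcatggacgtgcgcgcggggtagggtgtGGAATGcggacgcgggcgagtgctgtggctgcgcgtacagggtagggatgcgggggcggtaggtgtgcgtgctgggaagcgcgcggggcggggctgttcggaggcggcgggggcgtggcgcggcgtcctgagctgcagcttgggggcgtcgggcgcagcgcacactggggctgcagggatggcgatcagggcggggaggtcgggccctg
GJB2, chr13:20192889-20193188, minus strand: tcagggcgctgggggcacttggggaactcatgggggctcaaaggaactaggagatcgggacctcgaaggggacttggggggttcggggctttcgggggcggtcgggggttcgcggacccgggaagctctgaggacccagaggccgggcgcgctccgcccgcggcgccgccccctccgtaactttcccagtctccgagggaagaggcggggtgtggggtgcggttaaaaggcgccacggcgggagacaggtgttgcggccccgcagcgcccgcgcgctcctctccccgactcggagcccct
The windows differ in composition. GJA3 and GJB2 are 74.7% and 71.7% G or C with 37 and 33 CpG dinucleotides, GJA1 and GJA5 47.0% and 55.3% with 3 and 4, beside a median of 58.7% and 14 CpG dinucleotides over 35116 promoters of this length. GJB1 (56.0%, 2 CpG dinucleotides) and GJB6 (51.3%, 2 CpG dinucleotides) resembled GJA5 in this. The search covered GGAATG, a core read by the TEAD partners of YAP, GGTGTGA of T-box factors and TNAAGTG of NKX2-5, on both strands; the letters of these motifs do not contain each other. Of the 6 connexins with an entry in the table, 1 held the TEAD letters and 0 held either of the others, where 14.0%, 3.45% and 10.2% of all promoters hold them.

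GJA1, the most abundant connexin in every library, was higher in the YAPi group. It measured 243 and 232 CPM in the GiWi libraries and 406, 410 and 476 CPM in YAPi replicates 1, 2 and 3. Every YAPi library lay above both GiWi libraries, and replicate 3 was the highest. The change was 1.82-fold (log2 fold change 0.86 ± 0.09, SE, edgeR adjusted p = 0.000819), and 0.78 on the log2 scale without replicate 3. Replicate 3 reached 1.17 times the level of replicates 1 and 2 (95% exact counting interval 1.15 to 1.19), unlike the cardiomyocyte markers, which were all lower there. The 10 fibroblast markers, none at 0, summed to 60102 and 60431 CPM in GiWi. They summed to 106991 and 109389 CPM in YAPi replicates 1 and 2 and 127827 CPM in replicate 3. Of the 10, 7 were higher and 2 lower. The collagen genes COL1A1, COL1A2 and COL3A1, all higher, made up most of that sum. The lower genes were POSTN and PDGFRA, at log2 fold changes of -1.25 ± 0.14 and -1.76 ± 0.08. The part of this list in the GJA1 result was not tested. GJA1 lies in hg19 at chromosome 6, 121756723 to 121770890.

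GJA5, the connexin of atrial and fast-conducting muscle, fell most among the connexins tested. It measured 102 and 99.9 CPM in GiWi and 17.6, 17.7 and 11.8 CPM in YAPi replicates 1, 2 and 3. The groups were far apart, with replicate 3 lowest. GiWi was 6.42-fold higher (log2 fold change -2.68 ± 0.18, edgeR adjusted p = 0.000212), and without replicate 3 the log2 fold change was -2.51. In replicate 3 GJA5 stood at 0.666 times the level of replicates 1 and 2 (interval 0.600 to 0.738), a smaller drop than that of the cardiomyocyte list, whose median log2 difference was -1.32. GJA5 is also a connexin of arterial endothelium. The 14 endothelial markers summed to 336 and 349 CPM in GiWi and 391 to 486 CPM in YAPi, with 5 higher, 5 lower and 3 not passing of 13 tested and none at 0 throughout a group. KDR (187 and 193 CPM in GiWi, 226, 239 and 314 CPM in YAPi) and TEK (86.3 and 86.9 CPM against 95.7, 99.6 and 95.3 CPM), genes of endothelial receptors, made up most of that sum and were higher in YAPi. PECAM1, CDH5 and VWF, also defining genes of endothelium, reached at most 2.05, 1.10 and 0.361 CPM. The 5 lower genes were CDH5, TIE1, ROBO4, EMCN and PLVAP, at log2 fold changes of -1.43 to -3.42 and at most 3.75 CPM. PECAM1, ERG and CLDN5 were higher, as KDR and TEK were. Without replicate 3, 4 of 12 tested were higher and 6 lower. The part of this list in the GJA5 result was not tested.

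GJC1, which forms the low-conductance channels of nodal cells, fell as well. It measured 30.0 and 28.0 CPM in GiWi and 13.0, 14.5 and 12.3 CPM in YAPi replicates 1, 2 and 3. All YAPi libraries lay below both GiWi libraries and close to each other. GiWi was 2.19-fold higher (log2 fold change -1.13 ± 0.09, edgeR adjusted p = 0.000338), and -1.08 on the log2 scale without replicate 3. Replicate 3 was at 0.895 times replicates 1 and 2 (interval 0.805 to 0.994). GJA5 lies in hg19 at chromosome 1, 147228332 to 147245466, and GJC1 at chromosome 17, 42875816 to 42907607.

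**Figure D2:**
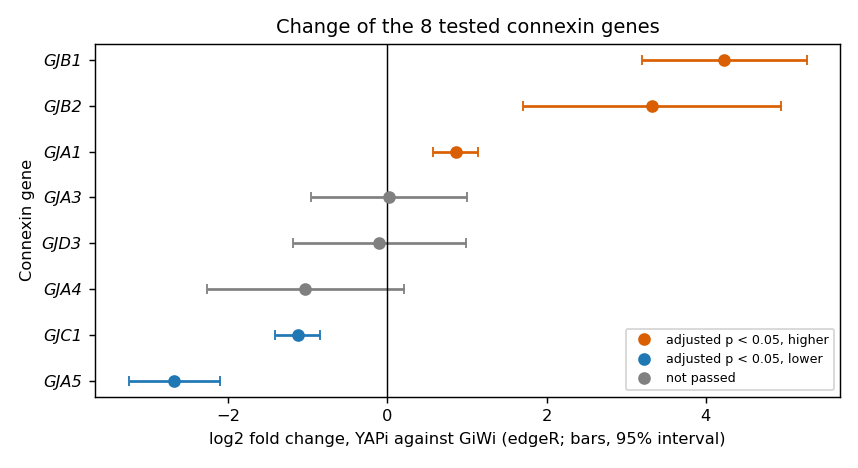
Log2 fold change of the 8 tested connexin genes, YAPi against GiWi, from edgeR, with 95% intervals from the SE and 3 residual degrees of freedom. GJB1, GJB2 and GJA1 are higher and GJC1 and GJA5 lower, while the intervals of GJA3, GJD3 and GJA4 include 0. The intervals are wider than the edgeR test implies, and for GJA4 an interval matching the unadjusted test would leave out 0.

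Ratios within a library show the shift without any scaling between libraries. GJA1 made up 65.3% and 64.6% of the summed FPKM of the 9 connexins in GiWi and 82.7%, 83.3% and 85.4% in YAPi replicates 1, 2 and 3. GJA5 took 29.6% and 30.2% of GJA1 and GJA5 together in GiWi, but 4.17%, 4.16% and 2.43% in YAPi. GJC1 took 4.87% and 4.77% of GJA1 and GJC1 together in GiWi and 1.31%, 1.44% and 1.06% in YAPi. The beta connexins GJB1, GJB2 and GJB6 made up 0.891% and 0.910% of the 9 in GiWi and 9.83%, 9.17% and 10.3% in YAPi. In each of these 4 ratios all YAPi libraries lay on the same side of both GiWi libraries, and p was 0.1 by a two-sided exact permutation test (also 0.1 after Benjamini-Hochberg adjustment over the 4), the smallest that 10 splits of 5 libraries allow. Without replicate 3 the YAPi mean differed from the GiWi mean by 18.1, -25.8, -3.44 and 8.60 percentage points, beside 18.9, -26.3, -3.55 and 8.87 with it. The ratios share the GJA1 values and are not independent of each other. The summed level of the 9 was 104 and 97.0 FPKM in GiWi and 123, 123 and 138 FPKM in YAPi.

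**Figure D3:**
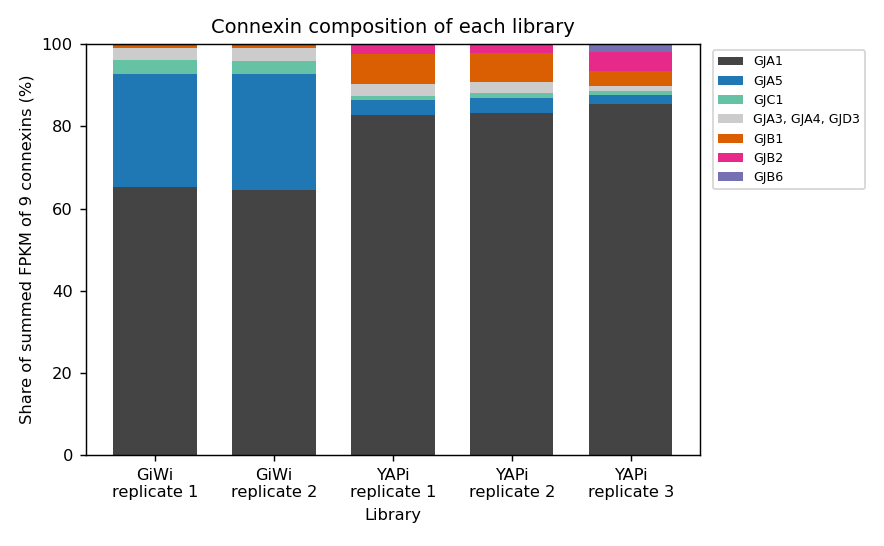
Share of the summed FPKM of the 9 connexins (%) held by each gene in each library. GJA1 fills 64.6 to 65.3% of the GiWi bars and 82.7 to 85.4% of the YAPi bars, and GJA5 shrinks. The beta connexins grow from 0.891 and 0.910% in GiWi to 9.83, 9.17 and 10.3% in YAPi, with GJB2 and GJB6 larger in replicate 3.

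Among the beta connexins, GJB1 (connexin 32), the main connexin of hepatocytes and also of Schwann cells, rose most. It measured 0.821 and 0.831 CPM in GiWi and 18.6, 17.5 and 10.5 CPM in YAPi replicates 1, 2 and 3. The GiWi pair was low and even, and all YAPi libraries were far above it, replicate 3 the least. The level was 18.8-fold higher (log2 fold change 4.23 ± 0.33, edgeR adjusted p = 0.000322), and 4.45 on the log2 scale without replicate 3. Replicate 3 was at 0.580 times replicates 1 and 2 (interval 0.520 to 0.646). Most liver and gut markers rose too: 12 of 14 were higher and 1, ALB, lower, and none was at 0. The list summed to 590 and 619 CPM in GiWi and 1202, 1188 and 1036 CPM in YAPi replicates 1, 2 and 3, at a median log2 difference of -0.59 in replicate 3. ALB, most of the GiWi sum, fell from 402 and 424 CPM to 52.6, 41.2 and 17.8 CPM (log2 fold change -3.47 ± 0.43). Their part in the GJB1 result was not tested. GJB1 lies in hg19 at chromosome X, 70435062 to 70445065, inside the span of BCYRN1 on the other strand, which had 0 counts in every library.

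GJB2 (connexin 26), a connexin of epithelia and of the inner ear, rose too. It measured 1.16 and 1.16 CPM in GiWi and 8.16, 7.71 and 19.1 CPM in YAPi replicates 1, 2 and 3. Replicate 3 was the highest here, the reverse of GJB1. The level was 10.1-fold higher (log2 fold change 3.33 ± 0.51, edgeR adjusted p = 0.00321), and 2.78 on the log2 scale without replicate 3. GJB6 (connexin 30), which pairs with GJB2 in channels of the cochlea and the epidermis, had 5 and 1 counts in GiWi and 9, 2 and 281.5 counts in YAPi replicates 1, 2 and 3. It was therefore at trace level in 4 of the 5 libraries, and its GiWi and YAPi values overlapped (0.0933 and 0.0193 CPM against 0.191, 0.0470 and 6.97 CPM). The filter on low counts kept it out of the test.

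Replicate 3 split the beta connexins, with GJB2 and GJB6 higher there and GJB1 lower. GJB2 stood there at 2.41 times (interval 2.17 to 2.67) and GJB6 at 56.8 times (31.3 to 115) the level of replicates 1 and 2. Of the 8 tested connexins, GJB2 alone was at least 2-fold higher in replicate 3, as were 3.83% of all genes tested, and GJA3 alone at least 2-fold lower, as were 5.58%. This library has no second one like it, so there is no test. The squamous epithelium markers, such as the basal keratin KRT5, also stood high there: they summed to 122 and 119 CPM in GiWi, 162 and 166 CPM in YAPi replicates 1 and 2 and 1130 CPM in replicate 3, and all 11 tested were higher in replicate 3 than in both other YAPi libraries. Between the groups, 6 of them were higher, 1 lower and 4 did not pass, and LGALS7 was at 0 in GiWi. Without replicate 3, 9 of 10 tested were higher and 1 lower, at a median log2 fold change of 2.52. The lower gene was DSC3, at 114 and 111 CPM in GiWi and 94.4, 94.0 and 101 CPM in YAPi. DSC3 made up most of the sum in every library but YAPi replicate 3. The 12 simple epithelium markers, none at 0, were all higher in YAPi, at 1866 and 2053 CPM summed in GiWi and 3217, 3344 and 3697 CPM in YAPi. The keratin genes KRT8, KRT18 and KRT19 made up most of that sum, at log2 fold changes of 0.60, 0.42 and 1.09. The median log2 fold change over the simple epithelium list was 4.70. The part of either list in the GJB2 and GJB6 values was not tested.

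**Figure D4:**
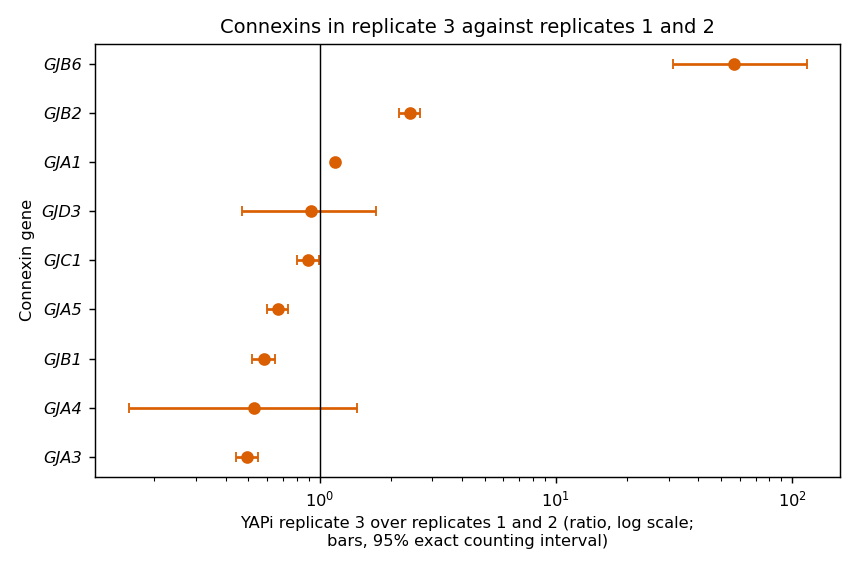
Ratio of YAPi replicate 3 to replicates 1 and 2 (log scale) for each of the 9 connexin genes, all with at least 20 counts in the YAPi group, with 95% exact counting intervals. GJB6 and GJB2 lie to the right at 56.8 and 2.41, and GJA3 lies furthest to the left at 0.493.

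GJB2 lies between GJA3 and GJB6 on chromosome 13 (hg19, minus strand, 20761604 to 20767114), with 26420 bases to the GJA3 span (20712395 to 20735183) and 28986 bases to the GJB6 span (20796101 to 20806534). These neighbours did not move alike. GJA3 (connexin 46), known as the connexin of lens fibre cells, measured 17.1 and 16.9 CPM in GiWi and 21.1, 20.4 and 10.2 CPM in YAPi replicates 1, 2 and 3. Replicates 1 and 2 lay above the GiWi pair and replicate 3 below it. GJA3 did not pass (log2 fold change 0.02 ± 0.31, 95% interval -0.96 to 1.00, edgeR adjusted p = 0.960), whereas without replicate 3 it passed at a log2 fold change of 0.29 (edgeR adjusted p = 0.000436). Its level in replicate 3 was 0.493 times that of replicates 1 and 2 (interval 0.442 to 0.549). Of the 12 lens and eye markers 10 were tested, and 6 were higher, 1 lower and 3 did not pass (8 higher and 1 lower without replicate 3), with MIP and SIX6 at 0 in GiWi and a sum of 137 and 141 CPM in GiWi and 260, 264 and 159 CPM in YAPi replicates 1, 2 and 3. CRYAB, the largest single part of that sum, did not pass, at 99.4 and 106 CPM in GiWi and 122, 127 and 61.6 CPM in YAPi. Among the lens genes on that list, the water channel gene MIP had no counts in GiWi and at most 0.124 CPM in YAPi. CRYAA rose from at most 0.0187 CPM to 3.74, 3.74 and 0.247 CPM, while CRYBB2 and BFSP1 did not pass and BFSP2 was not tested.

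GJA4 (connexin 37), a connexin of arterial endothelium, and GJD3 (connexin 31.9) were at trace level. GJA4 had 18 and 25 counts in GiWi and 11, 10 and 5 in the YAPi libraries, or 0.336 and 0.483 CPM against 0.234, 0.235 and 0.124 CPM. All YAPi values were below both GiWi values, yet the call missed the threshold (log2 fold change -1.03 ± 0.39, 95% interval -2.27 to 0.21, edgeR adjusted p = 0.0665), as it did without replicate 3 (-0.79, edgeR adjusted p = 0.0576). GJD3 had 17 and 27 counts in GiWi and 22, 14 and 15 in YAPi, with overlapping groups (log2 fold change -0.10 ± 0.34, 95% interval -1.19 to 0.98, edgeR adjusted p = 0.815; -0.06 without replicate 3, adjusted p = 0.889). Both intervals use 3 residual degrees of freedom and are wider than the edgeR test implies. For GJA4 an interval matching the unadjusted edgeR test would leave out 0, and GJA4 passed in 4 of 13 alternatives. At these depths changes within the printed intervals remain possible. GJA4 lies in hg19 at chromosome 1, 35258599 to 35261348, and GJD3 at chromosome 17, 38516905 to 38520945.

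Other connexins and the pannexins changed as well. Of 14 listed, 6 were tested and all passed, 4 higher and 2 lower, also without replicate 3. GJD2 (connexin 36), the connexin of neurons and pancreatic beta cells, fell from 2.67 and 2.59 CPM to 0.510, 0.564 and 0.420 CPM (log2 fold change -2.39 ± 0.20, edgeR adjusted p = 0.000440). GJB5, not tested, went from 0 to 6, 6 and 154.5 counts. Pooled over the YAPi group it was at least 45.0-fold higher against a floor of 3 counts over the GiWi group. Replicate 3 carried that bound, which is no minimum for replicates 1 and 2. GJB5 stood in replicate 3 at 28.4 times the level of replicates 1 and 2 (interval 15.8 to 56.2). PANX1 and PANX2, pannexins that form large-pore channels without docking, rose by 0.70 ± 0.06 and 1.18 ± 0.07 on the log2 scale (edgeR adjusted p = 0.000524 and 0.000152). PANX1 measured 18.7 and 17.6 CPM in GiWi and 30.2, 29.8 and 28.4 CPM in YAPi, and PANX2 7.71 and 7.81 CPM against 17.0, 17.9 and 17.7 CPM.

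Gap junctions sit in the intercalated disc beside the adhesion junctions that hold muscle cells together. Of 20 disc genes, 4 rose, 8 fell and 8 did not pass, with a median log2 fold change of -0.20; the share called, 60.0%, was near the 57.1% of all genes. Without replicate 3, 8 rose and 11 fell, where 74.9% of all genes passed. ANK2 and ANK3, ankyrins that anchor channels in the membrane, fell from 107 and 103 CPM to 48.3, 46.1 and 36.8 CPM (log2 fold change -1.26 ± 0.12) and from 86.3 and 82.0 CPM to 52.8, 51.0 and 48.8 CPM (-0.73 ± 0.06). TJP1, the scaffold ZO-1 that binds the tail of connexin 43, measured 146 and 146 CPM in GiWi and 107, 109 and 117 CPM in YAPi (log2 fold change -0.40 ± 0.06, edgeR adjusted p = 0.0032). TJP1 fell while GJA1 rose. CXADR, a cell adhesion protein of the disc, measured 42.3 and 37.4 CPM in GiWi and 28.1, 27.7 and 29.6 CPM in YAPi (log2 fold change -0.49 ± 0.07). The desmosomal plaque gene DSP, another disc gene, rose from 170 and 175 CPM to 252, 260 and 310.5 CPM (log2 fold change 0.67 ± 0.10). N-cadherin, encoded by CDH2, did not pass, at 329 and 319 CPM against 287, 294 and 248 CPM.

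Proteins that bind, move or phosphorylate connexin 43 formed a further list of 22, which shares TJP1 with the disc genes. Of these, 3 rose, 9 fell and 10 did not pass, with a median log2 fold change of -0.18 and 54.5% called; without replicate 3, 4 rose and 12 fell. PRKCD, a protein kinase C, rose from 15.9 and 16.1 CPM to 27.9, 27.3 and 29.3 CPM (log2 fold change 0.81 ± 0.06, edgeR adjusted p = 0.000298). EZR, the membrane-actin linker ezrin, and TUBB, a beta tubulin, fell by 0.76 and 0.82 on the log2 scale. SRC, whose kinase phosphorylates the connexin 43 tail, did not pass, at 79.2 and 86.8 CPM against 87.9, 85.0 and 84.5 CPM.

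Transcription factors known to act on connexin genes in the heart were mostly lower in YAPi. Of 20, 4 rose, 13 fell and 3 did not pass (85.0% called, beside 57.1% of all genes), with a median log2 fold change of -0.90 beside 0.01 over all genes tested; without replicate 3, 5 rose and 14 fell. TBX5, an activator of Gja5 in the mouse, measured 83.0 and 84.4 CPM in GiWi and 7.01, 7.57 and 3.46 CPM in YAPi replicates 1, 2 and 3 (log2 fold change -3.79 ± 0.30). Like GJA5, it was lowest in replicate 3, where 10 of the 20 factors lay below both other YAPi libraries and 9 above both. The part of these factors in the connexin results was not tested. TBX18 and SHOX2, factors of the sinus node, fell by 3.92 and 5.65 on the log2 scale. TBX2 and TBX3, repressors of Gja5 and Gja1 in the mouse, were lower too: TBX2 at 54.2 and 57.4 against 26.3, 28.2 and 28.1 CPM, and TBX3 at 32.1 and 30.7 against 15.8, 16.1 and 19.0 CPM (log2 fold changes -1.02 ± 0.06 and -0.89 ± 0.09). IRX3, a regulator of Gja5 and Gja1 in the fast conduction fibres of the mouse, rose from 6.10 and 6.34 CPM to 8.63, 8.42 and 10.8 CPM (log2 fold change 0.58 ± 0.14, edgeR adjusted p = 0.0159). NKX2-5 did not pass, at 50.5 and 53.1 CPM against 46.2, 45.8 and 24.7 CPM.

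**Figure D5:**
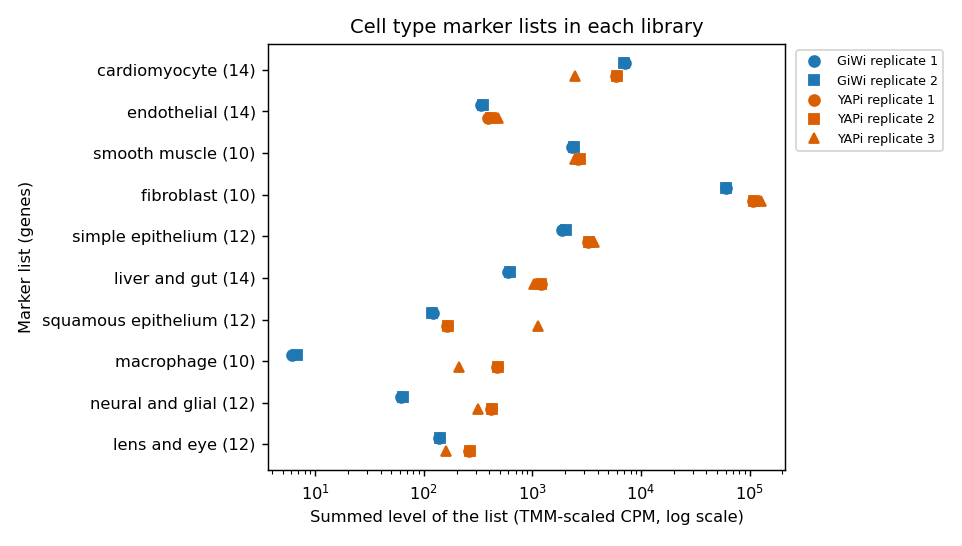
Summed level of each cell type marker list (CPM scaled by TMM factors, log scale) in every library, with the number of genes in brackets. The cardiomyocyte list is lowest and the squamous epithelium list highest in YAPi replicate 3, at 2463 and 1130 CPM, and the macrophage list is higher in all YAPi libraries.

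The lists not yet named moved as follows. Macrophage markers were all higher (10 of 10), from 6.08 and 6.84 CPM summed in GiWi to 468, 480 and 210 CPM in YAPi, with CD163 and C1QB at 0 in both GiWi libraries as deposited and TYROBP and MRC1 at no more than 0.5 counts in either, which rounds to 0. Of 11 tested neural and glial markers 9 were higher, from 61.5 and 64.4 CPM to 418, 422 and 315 CPM, with ELAVL4 and OLIG2 at 0 in GiWi. Of 10 smooth muscle markers 2 were higher and 5 lower (4 and 5 without replicate 3), none at 0, at 2292 and 2420 CPM against 2610, 2736 and 2484 CPM. Counts of higher and lower genes in the macrophage, neural and glial, fibroblast, simple epithelium and liver and gut lists were the same without replicate 3. The part of these lists in the connexin results was not tested.

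The genes whose pattern over the 5 libraries lay nearest were sought for 4 connexins by the Euclidean distance between centred log2(CPM + 1) profiles, among 9773 genes of at least 10 CPM. For GJA1 they were SBNO2, IGFBP3 and BID (distances 0.0619, 0.0874 and 0.101 log2 units), of which IGFBP3 encodes a binding protein of insulin-like growth factors. For GJA5 they were COL25A1, ABCA8 and ADAMTS8 (0.0885, 0.155 and 0.176). COL25A1, a transmembrane collagen, measured 59.0 and 55.2 CPM in GiWi and 9.10, 9.45 and 6.38 CPM in YAPi, low in replicate 3 as GJA5 was. For GJC1 they were IQGAP2, RRAD and CNKSR3 (0.0653 and 0.0864 for the first pair); RRAD encodes a small GTPase that limits calcium channel current in muscle. For GJA4 they were GMPR, VAMP2 and TMEM101 (0.0406, 0.0471 and 0.0566), a likeness of little content because GJA4 is under 1 CPM, where the added 1 flattens its profile.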

How the data were processed

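Gene-level values of 5 libraries were used. The expected count table was deposited by the authors: every value is a multiple of 0.5 (34.65% are not whole), and values were rounded to whole numbers for testing. The FPKM table was also deposited by the authors; it lists the same 27139 genes, 7379 of them with another transcript, so genes were matched by symbol. Per the labels' protocols, libraries came from a stranded mRNA kit. Tools listed in the submitters' processing notes, with no role or order, are STAR 2.5.1, HOMER, FastQC 0.11.5 and edgeR 3.16.1, and the build is hg19. Whether counting used strand is not given in the sources. No gene with counts overlaps a connexin span in the table. Each table has 3 emptied rows, not used here.

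The comparison was YAPi against GiWi, with edgeR 4.0.16 (R 4.3.3): quasi-likelihood test, TMM factors, filterByExpr (minimum count 10, minimum total 15), Benjamini-Hochberg adjustment over 17634 genes at 0.05. SE is the log2 fold change over the root of F. Single ratios had an exact permutation test. Intervals from counts are 95% exact, and a group at 0 has a floor of 3 counts over the group; both cover only counting error. Within groups the counts varied beyond sampling noise (chi-square per degree of freedom 2.13 to 53.5). Named genes were the 9 connexins, genes of fixed lists (up to 4 of each pathway list with the smallest p, and further members chosen after their values were seen: DSP, CDH2, SRC, TBX3, IRX3, NKX2-5, GJB5 and single markers) and the 3 nearest patterns of 4 connexins. Some genes of the lists are not reported here. Connexins and lists were chosen with earlier results of these data known. Fitting was tested on simulated data. Alternatives were RLE factors, library size alone, other filters, DESeq2 1.42.0, limma 3.58.1 (voom with sample weights; log2(FPKM + 1) and log2(FPKM + 0.1)), each library left out, and a replicate block. Figures: matplotlib 3.10.9.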

Additional observations from a re-analysis of the deposited data

How the results depend on the processing

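The calls of GJA1, GJA5, GJC1, GJB1 and GJB2 kept direction and threshold in all 14 alternatives each; the highest adjusted p was 0.0389, for GJB2 without GiWi replicate 2. GJA4 passed with library size alone, voom and log2(FPKM + 1) or log2(FPKM + 0.1) (adjusted p = 0.0388, 0.0417, 0.0342 and 0.0318), in a range up to 0.340. GJB6 passed in DESeq2 (adjusted p = 0.0325), not in edgeR without a filter (0.119). GJA3 passed only without YAPi replicate 3 and with the replicate block. Without passing, it turned to -0.17 with library size alone, -0.13 with log2(FPKM + 1) and -0.19 with log2(FPKM + 0.1). It also turned to -0.14 and -0.11 without YAPi replicate 1 or 2 (range over left-out libraries -0.14 to 0.29). GJD3 turned to 0.29 without GiWi replicate 2 and 0.0098 without YAPi replicate 2 (range -0.42 to 0.29). The cause was not tested. Genes called over the whole table numbered 5909 to 13115 with a library left out, 6070 and 5909 without GiWi replicate 1 or 2, where 1 library is assumed to vary like the other group. Library size alone moved the median log2 fold change of all genes to -0.18 and log2(FPKM + 0.1) to -0.12, and the share of calls that are higher was 52.9%, against 35.8%, 38.0% and 39.7% with library size alone, log2(FPKM + 1) and log2(FPKM + 0.1). From counts per length the group differences of the 4 ratios were 18.9, -26.3, -3.55 and 8.85 percentage points. With all 20 connexins in the denominator, an alternative of 2 of the ratios, the GJA1 difference was 19.95 and the beta difference 8.68, moves smaller than the YAPi SD but larger than the GiWi SD. Leaving YAPi replicate 3 out of the list counts was chosen after seeing the data; it moved the higher disc genes from 4 to 8.

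Replicate numbers are not said to mark shared cultures. Deviations from the group means correlated at 0.17 for replicate 1 and -0.11 for replicate 2. With the replicate block, in which YAPi replicate 3 drops out of the contrast, 4 connexins were higher and 2 lower (GJA3 also passed, at 0.29), and 13576 genes were called. Depth limits GJA4 and GJD3, at 5 to 27 counts a library, and GJB6, at 1 to 9 counts in all but YAPi replicate 3.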
